A study of Mus musculus with 4 samples.

Results

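A set of 10 genes known from adventitial fibroblasts was followed in sorted interstitial cells of the neonatal mouse testis: Clec3b, Dpt, Mfap5, Pcolce2, Gsn, Pi16, Ly6a, Ly6c1, Cd34 and Cd248. They are 10 of the 22802 rows of the deposited expression table, each found under its own symbol. They were selected on 2 grounds, their known link to adventitial fibroblasts and the FPKM difference of this same contrast, in which several are among the largest falls in laminin-positive cells. Their difference between the populations is therefore given as a description, without a test. RNA sequencing was carried out on C57BL/6J mice with the transgenes mFLE-Cre and CAG-CAT-EGFP, a reporter in which EGFP is switched on after Cre recombinase has acted. Dispersed testicular cells of 10-day-old animals were sorted for EGFP and for laminin on their surface, which gave 2 laminin-negative and 2 laminin-positive samples. All 4 samples share the genotype, strain and age. In the design text EGFP is weak in the laminin-negative population, but the labels of all 4 samples give EGFP as positive, so laminin staining and EGFP level cannot be told apart. The labels do not expand mFLE or say which cells drive the Cre, nor whether replicates are separate animals. The p-values below therefore rest on spread between replicates, with variance shared across genes unless stated otherwise, and that spread may be technical.

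Adventitial fibroblasts lie in the outer coat of vessels and in the connective tissue around organs. Across mouse tissues they share a programme of surface antigens and secreted matrix proteins that is widely used to recognise fibroblast progenitors, with Pi16 and Dpt as its best known genes. Of the genes followed here, Clec3b, Dpt, Mfap5, Pcolce2 and Gsn encode secreted or matrix proteins (Gsn also has a form that acts inside the cell), and Pi16, Ly6a, Ly6c1, Cd34 and Cd248 encode proteins of the cell surface. Several are not private to fibroblasts: Cd34, Ly6a and Ly6c1 are also classical markers of endothelial or blood cells.

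Values are FPKM, by definition fragments scaled to transcript length and to the number of mapped fragments. The unit allows levels to be compared between genes, but the scaling applied between libraries was not given. The library sums of FPKM ran from 491475 to 548986, and 11794 to 12011 rows reached 1 FPKM. The number of fragments was not given. In genes with 1 annotated transcript the lowest values piled up between 0.0325 and 0.0375 FPKM times kilobase in every library, with 1.08% to 3.17% of values below, so levels of a few hundredths of an FPKM lie near the least that the table resolves. A higher or lower level in these bulk samples can stand for more cells of a type or for more RNA per cell, which cannot be told apart.

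RefSeq promoter windows (GRCm38.p6, 250 bases before to 50 after an annotated start) were at hand for 6 of the 10 genes, in 9 entries because Gsn has several starts and Ly6c1 a pair that overlap. Clec3b, Mfap5, Ly6a and Cd248 had no entry. The letters CAGCTG, an E-box of the kind bound by basic helix-loop-helix factors, occurred in 7 of the 9 entries, against 16.3% of all 32851 entries. The overlapping Ly6c1 entries share 1 site, which is counted in both. By gene, CAGCTG occurred in 5 of the 6, and no share by gene was computed for the rest. This motif was 1 of 7 searched on both strands and was singled out after the counts were seen. It reads the same on either strand, and none of the matches shared letters with another motif. The stretches before the start that hold it are shown for Dpt (chr1:164796413-164796662, plus strand), the first start of Gsn (chr2:35256109-35256358, plus), the first start of Ly6c1 (chr15:75048838-75049087, minus) and Pcolce2 (chr9:95637378-95637627, plus), 5′ to 3′ up to the base before the start, with CAGCTG in capitals.
Dpt: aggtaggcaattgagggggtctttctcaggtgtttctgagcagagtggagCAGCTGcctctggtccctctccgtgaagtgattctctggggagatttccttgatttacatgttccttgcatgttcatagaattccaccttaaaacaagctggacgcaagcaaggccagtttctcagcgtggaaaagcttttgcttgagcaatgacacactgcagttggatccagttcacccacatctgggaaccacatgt
Gsn: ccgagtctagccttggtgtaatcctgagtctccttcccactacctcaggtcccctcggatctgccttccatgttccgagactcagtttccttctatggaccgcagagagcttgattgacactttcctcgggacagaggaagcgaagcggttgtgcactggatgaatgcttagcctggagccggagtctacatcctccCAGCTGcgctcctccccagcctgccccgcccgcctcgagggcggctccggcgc
Ly6c1: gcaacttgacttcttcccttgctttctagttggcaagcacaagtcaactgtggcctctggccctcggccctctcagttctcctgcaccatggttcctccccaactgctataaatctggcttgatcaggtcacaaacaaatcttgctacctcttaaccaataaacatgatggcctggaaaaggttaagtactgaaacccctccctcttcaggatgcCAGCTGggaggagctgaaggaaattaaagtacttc
Pcolce2: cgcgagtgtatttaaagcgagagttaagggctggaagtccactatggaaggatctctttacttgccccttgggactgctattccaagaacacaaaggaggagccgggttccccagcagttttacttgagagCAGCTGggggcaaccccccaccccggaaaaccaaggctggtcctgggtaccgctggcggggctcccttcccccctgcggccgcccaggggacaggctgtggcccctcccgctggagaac
In these stretches CAGCTG begins 200 bases before the start in Dpt, 53 in Gsn, 35 in Ly6c1 and 119 in Pcolce2. In Pi16 it lies 23 bases past the start, and in Cd34 there was no match in the window. TATAAA occurred in 2 of the 9 entries (13.6% of all), 12 bases past the start in Dpt and 143 before it in Ly6c1. CCAAT occurred in 4 entries (37.4% of all), of Gsn, Ly6c1 and Pi16. GGGCGG occurred in 4 entries (35.7% of all), of Gsn and Pcolce2. No entry of these genes held TGANTCA (7.81% of all), AAGGTCA (4.72%) or a CArG box (1.63%). Pcolce2, 1 of the 5 genes with CAGCTG, was barely detected in any library. A match is a description of the letters in the window, and binding was not measured.

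Among the secreted and matrix proteins, Clec3b, Dpt and Mfap5 were abundant in laminin-negative cells and close to 1 or 2 FPKM in laminin-positive cells. Clec3b (chromosome 9, 123150946 to 123157432, GRCm38) encodes tetranectin, a C-type lectin that binds plasminogen. It stood at 759.9 and 731 FPKM in the laminin-negative libraries and at 1.42 and 2.63 FPKM in the laminin-positive libraries. The ratio of the means was 368, and ratios between pairs of libraries spanned 278 to 535 because the laminin-positive values differed between replicates. Clec3b was the 109th most abundant row of the table in laminin-negative and the 10898th in laminin-positive cells.

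Dpt (chromosome 1, 164796644 to 164824266) encodes dermatopontin, a matrix protein that binds decorin and helps collagen fibrils to form. Its FPKM was 106 and 101 in the laminin-negative and 1.11 and 1.29 in the laminin-positive libraries, an 86.2-fold ratio of means. Mfap5 (chromosome 6, 122505845 to 122529290) encodes a glycoprotein of elastin-associated microfibrils. It was at 99.3 and 105 FPKM in laminin-negative cells against 2.18 and 1.14 FPKM in laminin-positive libraries, 61.7-fold apart. Neither gene's libraries overlapped between the populations. In laminin-negative cells the levels of Dpt and Mfap5 interleaved. In laminin-positive cells Mfap5 interleaved with Clec3b and with Dpt, while both Clec3b values lay above both Dpt values.

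Gsn (chromosome 2, 35256380 to 35307892) encodes gelsolin, which severs and caps actin filaments and is also secreted into plasma. It was the most abundant of the 10 genes in both populations, with 919.7 and 962 FPKM in the laminin-negative and 158 and 163 FPKM in the laminin-positive libraries. The 5.87-fold ratio left gelsolin at place 438 by abundance in laminin-positive cells. Pcolce2 (chromosome 9, 95637601 to 95698096) encodes an enhancer of procollagen C-proteinase. It stayed under 1 FPKM in all libraries, at 0.325 and 0.143 in laminin-negative and 0.0411 and 0.0576 in laminin-positive cells, and no fold is given for it. Pcolce2 was the only one of the 10 genes under 1 FPKM in every library.

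Among the surface antigens, Pi16 and Ly6a were nearly confined to the laminin-negative libraries. Pi16 (chromosome 17, 29317680 to 29330593) encodes peptidase inhibitor 16, which names the adventitial progenitor type. It was at 27.7 and 27.8 FPKM in laminin-negative cells against 0.295 and 0.285 FPKM in laminin-positive libraries, a 95.6-fold ratio with the closest replicates of all 10 genes. Ly6a (chromosome 15, 74994877 to 74998031) encodes the Sca-1 antigen of stem and progenitor cells. Its levels of 16.6 and 14.6 FPKM in laminin-negative cells faced 0.190 and 0.0436 FPKM in laminin-positive cells. The ratio of means was 134, but ratios between pairs of libraries spanned 77.1 to 382, since the lower values lie near the resolution of the table.

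Ly6c1 (chromosome 15, 75044018 to 75048830), which encodes the Ly6C antigen of monocytes, endothelium and some fibroblasts, was lower overall. It was at 7.23 and 9.80 FPKM in laminin-negative cells against 0.849 and 0.725 FPKM in laminin-positive libraries, 10.8-fold apart. Ly6c1 and Ly6c2 are near-identical copies, so reads may be split between them and both values are uncertain. Ly6c2 was listed at 0.732 and 0.0691 FPKM in laminin-negative and at 0 in both laminin-positive libraries.

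Cd34 and Cd248 were shared by the populations. Cd34 (chromosome 1, 194938819 to 194961279), a sialomucin of progenitor and endothelial cells, was at 350.2 and 374 FPKM in laminin-negative cells against 93.2 and 97.1 FPKM in laminin-positive libraries. Cd248 (chromosome 19, 5068078 to 5070682, a gene without introns) encodes endosialin, an antigen of fibroblasts and pericytes. It was at 236 and 208 FPKM in laminin-negative cells against 76.0 and 72.6 FPKM in laminin-positive libraries. Their ratios of 3.80 and 2.99 were the smallest of the 9 genes for which a ratio is given, and their laminin-positive values did not overlap each other.

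**Figure D1:**
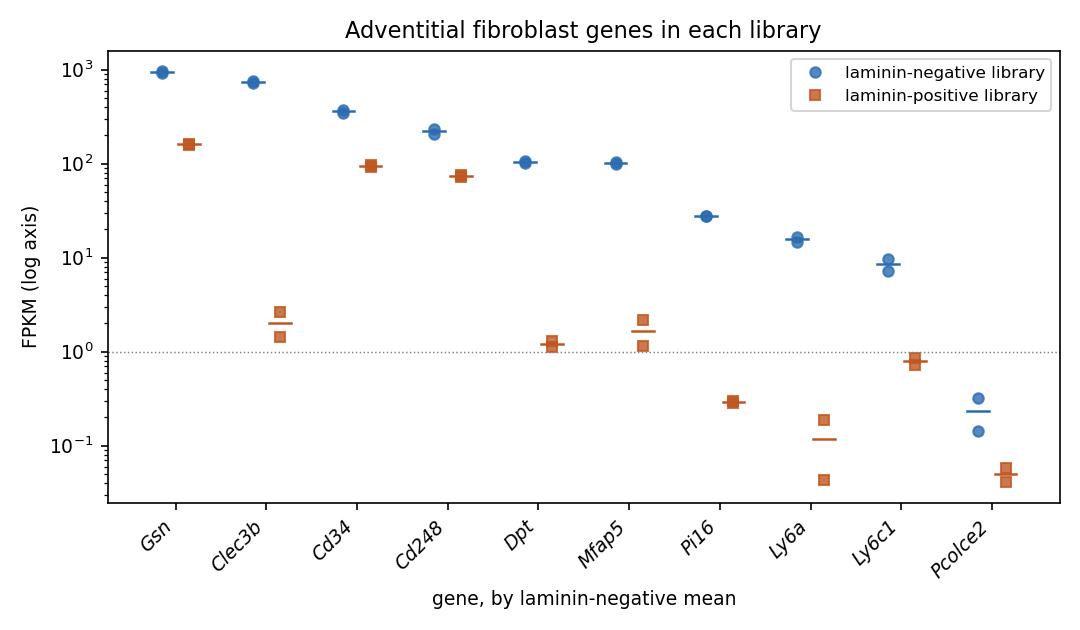
FPKM of the 10 genes (log axis) in each laminin-negative library (blue circles) and laminin-positive library (orange squares), with short lines at the mean of 2 libraries and a dotted line at 1 FPKM. Gsn, Cd34 and Cd248 stayed between 72.6 and 163 FPKM in laminin-positive cells, whereas the other 7 genes were at 2.63 FPKM or less there.

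Both laminin-positive libraries lay below both laminin-negative libraries for all 10 genes, which were picked in part on this same contrast. The same held for 37.8% of the 12348 tested genes, and the reverse order for 39.4%. Of the 10 genes, 9 passed the filter of at least 1 FPKM in at least 2 libraries, and Pi16, Ly6a and Ly6c1 passed it through the laminin-negative libraries alone. By size of the log2 difference, Clec3b held place 1 among the falls, Dpt 3, Mfap5 6, Pi16 12 and Ly6a 28. Gsn followed at place 116, Ly6c1 at 137, Cd34 at 244 and Cd248 at 352. On the log2(FPKM + 1) scale, which understates the change of low genes, the differences ran from −7.98 for Clec3b to −1.57 for Cd248. With a pseudocount of 0.1 in place of 1, the difference of Pi16 went from −4.48 to −6.16 and that of Ly6a from −3.90 to −6.27.

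**Figure D2:**
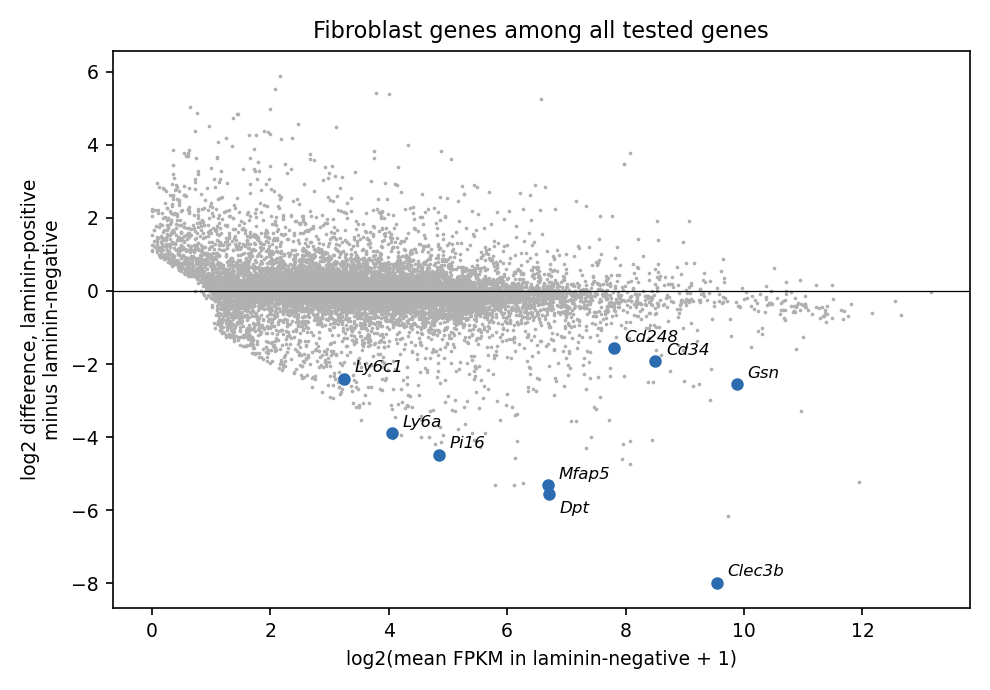
Log2 difference between the populations (laminin-positive minus laminin-negative, on log2(FPKM + 1)) against the laminin-negative level for each of the 12348 tested genes (grey) and the 9 fibroblast genes that passed the filter (blue, labelled). Clec3b lies lowest of all at −7.98, and Cd248 at −1.57 is nearest to 0 of the labelled genes.

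In all, the 10 genes summed to 2524 and 2534 FPKM in the laminin-negative libraries (0.474% and 0.462% of all FPKM). In the laminin-positive libraries they summed to 333 and 338 FPKM (0.0661% and 0.0689%). Most of what remained there was gelsolin, Cd34 and endosialin. Without these 3 genes and Clec3b, the other 6 summed to 257 and 258 FPKM in laminin-negative cells against 4.66 and 3.54 FPKM in laminin-positive cells. The order of the levels therefore differed between the populations, with Clec3b second only to Gsn in laminin-negative cells and behind Gsn, Cd34 and Cd248 in laminin-positive cells.

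Other genes of fibroblast types were compared by limma with Benjamini-Hochberg adjustment over all 12348 tested genes, with 26.6% called higher and 26.3% called lower in the laminin-positive population. Of 20 other genes of the Pi16 type, 17 could be tested. Of these, 12 were lower (70.6%) and 4 higher (23.5%), with a median log2 difference of −0.62 beside 0.01 for all tested genes. Cd55, a complement inhibitor on the cell surface, fell from 10.3 ± 0.920 FPKM (SD, n = 2) to 0.243 ± 0.130 FPKM (log2 difference −3.18, adjusted p = 7.39e-09). Efhd1, a calcium-binding protein of mitochondria, fell from 63.2 ± 2.58 to 8.13 ± 1.35 FPKM. The Wnt ligand gene Wnt2 fell from 5.50 ± 0.565 to 0.0589 ± 0.0581 FPKM. Cd55 and Wnt2, like Has1 and Emilin2, passed the filter through the laminin-negative libraries alone, so no higher call was open to them. Cd55, Efhd1 and Wnt2 were lower in both laminin-positive libraries and kept their calls under every alternative tried. Not all of the 12 did: Anxa3, named after its values were seen like Ackr3 and Igfbp5, lost its call under 6 of 11 alternatives, each library left out among them (adjusted p 0.0243 to 0.329). Fbn1 lost it under 8, and Ackr3 and Igfbp5 without shared variance (adjusted p = 0.0780 and 0.0744), which left 9 lower calls in that fit.

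The 4 genes that rose, named after their values were seen, were Sema3c, Procr, Loxl1 and Fstl1. Sema3c, a secreted guidance factor that accompanies Pi16 in several tissues, rose from 52.3 ± 1.72 to 95.5 ± 6.10 FPKM. Loxl1, which cross-links elastin, rose from 105 ± 6.31 to 174 ± 7.48 FPKM. Without variance shared across genes, limma no longer called Procr, Loxl1 or Fstl1 (adjusted p = 0.0561, 0.0501 and 0.0551). Dpp4, the surface peptidase most often used to sort Pi16-type cells, was chosen after its values were seen: it was listed at 0.00669 and 0 FPKM in laminin-negative cells against 0.0211 and 0.0638 FPKM in laminin-positive libraries. Il33 and Limch1 were also under 1 FPKM in every library, and Gfpt2, at 43.1 ± 0.246 and 41.7 ± 1.18 FPKM, did not pass the test (adjusted p = 0.600). Pi16 was thus present in laminin-negative cells while Dpp4 lay at or near 0.

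Among genes of the Col15a1 type, which marks fibroblasts within the tissue, 6 of 8 tested genes were lower in laminin-positive cells (75.0%, median log2 difference −1.38). Lower calls made up 26.3% of all tested genes. Penk, the precursor of enkephalins, fell from 166 ± 1.09 to 42.4 ± 1.93 FPKM (log2 difference −1.94, adjusted p = 4.04e-09). Htra3, a secreted protease, fell from 1104 ± 12.8 to 379 ± 5.93 FPKM. The lipoprotein lipase gene Lpl fell from 5.83 ± 0.864 to 1.27 ± 0.0323 FPKM. Apod, also called lower, passed the filter through the laminin-negative libraries alone, so no higher call was open to it. Its lower call was lost in limma without shared variance (adjusted p = 0.0618). Col15a1 itself differed little, at 159 ± 3.26 and 129.7 ± 3.14 FPKM (adjusted p = 0.00507), and its call was lost with equal FPKM sums (Rn45s, a ribosomal RNA row, left out), without laminin-positive replicate 1 and without shared variance (0.00507 to 0.0750 over the alternatives). Cxcl14 and Sparcl1 did not pass the test, Inmt was below the filter, and Hmcn2 was not analysed here.

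All 15 genes of a general fibroblast list were tested. Of these, 12 were lower (80.0%) and 3 higher (20.0%), beside 26.3% and 26.6% of all tested genes. The median log2 difference was −0.87. The small leucine-rich proteoglycan lumican (Lum) fell from 54.5 ± 6.62 to 0.392 ± 0.170 FPKM (log2 difference −5.32, adjusted p = 1.66e-10). Decorin (Dcn), another of the same family, fell from 1994 ± 298 to 203 ± 14.4 FPKM. Fbln2, a matrix protein of elastic fibres and basement membranes, fell from 10.3 ± 0.0653 to 0.316 ± 0.196 FPKM. Lum and Fbln2 passed the filter through the laminin-negative libraries alone, so no higher call was open to them. The genes that rose, named after their values were seen, were the gelatinase gene Mmp2 (101 ± 2.64 to 216 ± 7.96 FPKM), Fbln1 and Fap. The collagen gene Col1a1 remained high in both populations, at 2670 ± 103 and 1478 ± 81.4 FPKM, and the general fibroblast receptor Pdgfra at 319.6 ± 4.04 and 251 ± 9.85 FPKM. Both populations therefore expressed collagen I and Pdgfra. Without shared variance, limma called 7 of the 15 lower and 1 higher.

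**Figure D3:**
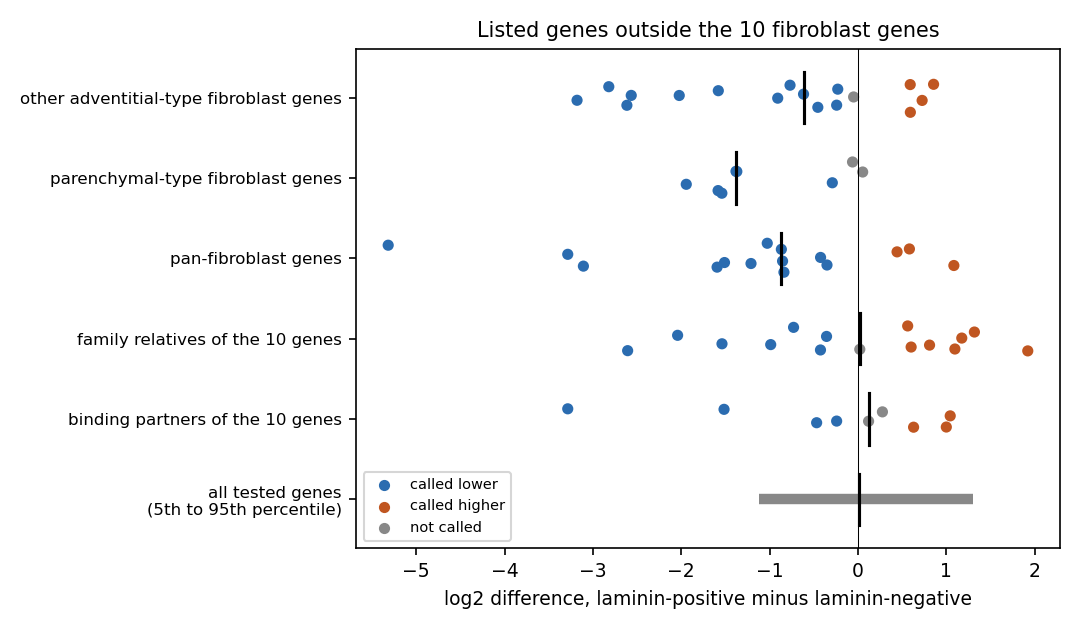
Log2 difference (laminin-positive minus laminin-negative) of each tested gene in 5 lists outside the 10 fibroblast genes, coloured by its limma call, with black lines at list medians and a grey bar from the 5th to the 95th percentile of all tested genes. The medians of the 3 fibroblast lists lie at −0.62, −1.38 and −0.87, and those of relatives and binding partners at 0.02 and 0.12.

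Relatives of the 10 genes by protein family did not follow them as a group. Of 27 listed, 15 could be tested, and 7 were lower (46.7%) and 7 higher (46.7%), with a median log2 difference of 0.02. Both shares lay above the 26.3% and 26.6% of all tested genes. Mfap2, the other microfibril-associated glycoprotein of the Mfap5 family, was level at 247 ± 9.04 and 251 ± 14.6 FPKM (log2 difference 0.02, limma adjusted p = 0.832). Pcolce, the close relative of the barely detected Pcolce2, was abundant and fell from 516 ± 15.5 to 177 ± 9.88 FPKM (log2 difference −1.54, adjusted p = 3.79e-08). In FPKM, Pcolce exceeded Pcolce2 in every library. Clec11a, a lectin of the tetranectin group, stayed between 0.219 and 1.01 FPKM, and Clec3a reached at most 0.0359 FPKM.

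The 3 listed relatives of Pi16 that could be tested, which share its CAP domain, all went the other way. This holds for the list only. Pi15, named like Pi16 but not listed, was level and not called (log2 difference −0.0269). Crispld2, a secreted CAP protein, rose from 35.5 ± 0.615 to 138 ± 5.70 FPKM (log2 difference 1.92, adjusted p = 4.62e-09). Glipr2 rose from 48.2 ± 1.92 to 71.7 ± 2.38 FPKM, and Crispld1 from 6.88 ± 0.503 to 11.0 ± 1.21 FPKM, a call lost without shared variance (adjusted p = 0.101). Glipr1 and R3hdml were under 1 FPKM. Of the gelsolin family, supervillin (Svil) rose from 22.7 ± 1.34 to 49.6 ± 1.29 FPKM. The capping protein Capg fell from 23.1 ± 1.81 to 11.2 ± 1.72 FPKM and Flii from 33.0 ± 0.503 to 25.6 ± 1.33 FPKM, calls that were lost without shared variance (adjusted p = 0.0812 and 0.0729). Scin, Avil and Vil1 were below 1 FPKM in every library.

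Thrombomodulin (Thbd), which belongs with endosialin to a small group of C-type lectin receptors, fell from 565 ± 7.33 to 91.9 ± 0.351 FPKM (log2 difference −2.61, adjusted p = 4.35e-10). Its relative Cd93, better known from endothelium, rose from 2.31 ± 0.333 to 7.25 ± 0.343 FPKM, and Clec14a stayed at 0.353 to 0.626 FPKM. Of the Cd34 family, Podxl2 rose from 12.9 ± 2.62 to 23.2 ± 0.214 FPKM, a call lost without shared variance (adjusted p = 0.122), and Podxl was at most 0.479 FPKM.

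Ly6a and Ly6c1 belong to a row of Ly6 genes on chromosome 15, and these did not share 1 direction. Ly6d fell from 4.81 ± 0.641 to 0.417 ± 0.215 FPKM (log2 difference −2.04, adjusted p = 6.61e-07). Ly6e, the most abundant of the row, fell from 127.5 ± 8.75 to 94.7 ± 1.74 FPKM and Ly6k from 1.45 ± 0.388 to 0.485 ± 0.324 FPKM. Ly6d and Ly6k passed the filter through the laminin-negative libraries alone, so no higher call was open to them. Ly6h rose from 2.62 ± 0.421 to 7.37 ± 2.65 FPKM. The calls of Ly6e, Ly6k and Ly6h were lost without shared variance (adjusted p = 0.0832, 0.207 and 0.155). Ly6i, next to Ly6a in the row, was at 0.0274 FPKM in laminin-negative replicate 1 and listed at 0 elsewhere, and Ly6g was not analysed here.

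**Figure D4:**
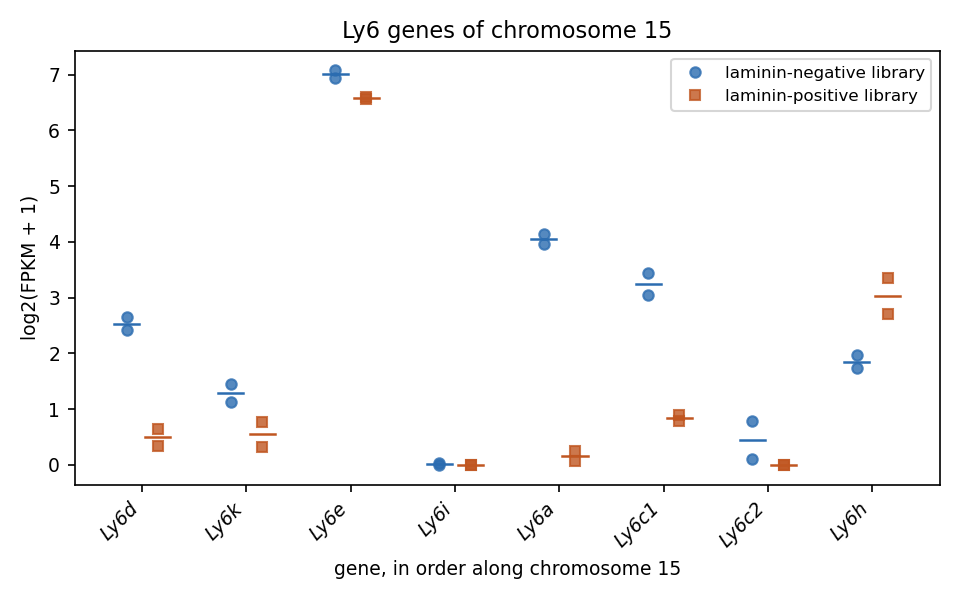
Log2(FPKM + 1) of 8 Ly6 genes in their order along chromosome 15, for each laminin-negative (blue circles) and laminin-positive (orange squares) library, with short lines at the mean of 2 libraries. Ly6e is high in both populations, Ly6a and Ly6c1 are high in laminin-negative libraries, and Ly6h is higher in laminin-positive libraries.

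Genes near the 10 on their chromosomes were counted as well. Within 200 kb of the 10 genes, 43 other rows were tested, of which 17 were called lower (39.5%) and 11 called higher (25.6%). Over all tested genes these shares were 26.3% and 26.6%. The neighbour nearest to Gsn, the membrane protein gene Stom, went against it and rose from 11.9 and 12.6 to 59.3 and 60.8 FPKM (log2 difference 2.21, adjusted p = 2.88e-09). All 3 tested neighbours of Mfap5, namely M6pr, Phc1 and Slc2a3, were called higher. Gm16897, an antisense transcript that overlaps Cd34, fell from 19.3 and 23.2 to 6.03 and 5.39 FPKM (log2 difference −1.73, adjusted p = 2.58e-07). Because the strand setting of the counting is not given, reads of Cd34 and Gm16897 cannot be told apart where they overlap. Antisense genes also overlap Dpt, Pi16 and Pcolce2. These neighbours were named after their values were seen.

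Proteins that bind the products of the 10 genes gave 9 tested genes of 14. Of these, 4 were lower (44.4%) and 3 higher (33.3%), beside 26.3% and 26.6% of all tested genes. Decorin, which binds dermatopontin, fell as given above. The fibrillins that carry Mfap5 moved apart: Fbn2 rose from 49.1 ± 6.15 to 102 ± 1.07 FPKM (log2 difference 1.05, adjusted p = 2.94e-06), whereas Fbn1 was at 172 ± 20.4 and 145 ± 2.32 FPKM (adjusted p = 0.0385). The call of Fbn1 was lost under 8 of 11 alternatives (0.00376 to 0.289), among them the fits that left out laminin-negative replicate 1 or either laminin-positive replicate. The call of Fbn2 was lost without shared variance (adjusted p = 0.0585).

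The procollagen C-proteinases enhanced by Pcolce proteins were both lower. Bmp1 fell from 131 ± 4.73 to 94.2 ± 0.00523 FPKM, and Tll1 from 1.92 ± 0.205 to 0.0218 ± 0.00309 FPKM (log2 difference −1.52, adjusted p = 3.16e-06). Tll1 passed the filter through the laminin-negative libraries alone, so no higher call was open to it. Among the actins bound by gelsolin, Actb rose from 1450.2 ± 66.8 to 2245 ± 35.3 FPKM, while Actg1, at 1321 ± 85.2 and 1436 ± 54.9 FPKM, did not pass the test (adjusted p = 0.268), but was called higher with equal FPKM sums and Rn45s left out, and under quantile normalization. Tgfb1 rose from 8.01 ± 0.814 to 17.0 ± 1.12 FPKM, a call lost without shared variance (adjusted p = 0.0542). Plat, like plasminogen a listed partner of tetranectin, was at 3.29 ± 0.166 and 4.21 ± 0.388 FPKM and did not pass (adjusted p = 0.0597). It was called higher by limma without the intensity trend, and with equal FPKM sums and Rn45s left out. Plasminogen (Plg), the ligand of tetranectin, reached at most 0.0216 FPKM, and the Cd34-binding selectin gene Selp was listed at 0 in every library. Sele and Mmrn2 were also under 1 FPKM. Plg, Sele and Selp thus lay at or near 0 in both populations, whereas Plat did not.

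The tested genes whose profiles over the 4 libraries lay nearest to the median profile of the 9 genes, by Euclidean distance of centred log2(FPKM + 1) values, were Oxtr (0.0994), Exoc3l (0.155), Hsd3b6 (0.196), Prlr (0.209), Cdh5 (0.217) and Zim1 (0.224). With 4 libraries in 2 populations this distance mainly reflects the size of the difference. The oxytocin receptor gene Oxtr was at 25.9 and 23.4 FPKM in laminin-negative cells against 0.703 and 0.533 FPKM in laminin-positive libraries. Hsd3b6, a steroid dehydrogenase of Leydig cells, was at 28.9 and 29.2 FPKM against 0.938 and 0.937 FPKM. The prolactin receptor gene Prlr was at 28.6 and 27.8 FPKM against 1.41 and 1.06 FPKM.

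Markers of other cell types moved with the same sort. Summed FPKM of 8 Leydig cell markers was 5057 and 4796 in the laminin-negative and 246 and 195 in the laminin-positive libraries, and all 8 had the higher mean in laminin-negative cells. The row that names both Insl3, a Leydig cell hormone, and its neighbour Jak3 led in both populations, at 3951 ± 182 and 107 ± 27.9 FPKM. All 10 smooth muscle and pericyte markers had the higher mean in laminin-positive cells, with sums of 5605 and 5667 against 192 and 179 FPKM, led by Acta2 in both (94.5 ± 4.16 and 3603 ± 7.71 FPKM). Sums of 6 Sertoli markers were 64.3 and 60.4 FPKM in laminin-negative cells against 141 and 132 FPKM in laminin-positive libraries. Aard was at the top in both populations (50.4 ± 1.95 and 102 ± 3.18 FPKM). Of the 6 Sertoli markers, 5 had the higher mean in laminin-positive cells. Sox9 went the other way, at 9.69 ± 0.865 FPKM without surface laminin and 7.71 ± 1.55 FPKM with it, and was not called by limma. The 10 genes thus stood high in the libraries with the higher Leydig sums, and the part of these markers in the results was not tested.

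Markers of endothelium and blood, with which some of the surface antigens are shared, differed among themselves. Of 12 endothelial markers, 6 were under 1 FPKM in every library, among them Pecam1 (0.126 and 0.141 FPKM in laminin-negative against 0.869 and 0.615 FPKM in laminin-positive libraries) and Kdr (0.0803 and 0.0437, 0.586 and 0.411 FPKM). The endothelial sum of 175 and 183 FPKM in laminin-negative against 28.0 and 26.3 FPKM in laminin-positive libraries came almost wholly from Cdh5, the endothelial cadherin, at 169 ± 5.58 and 9.57 ± 0.453 FPKM. In laminin-negative cells Egfl7 followed at 5.23 and 3.86 FPKM and Tek at 2.87 and 2.76 FPKM. Of the 12 genes, 9 had the higher mean in laminin-positive cells.

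Summed haematopoietic markers (10 genes, 6 under 1 FPKM throughout) were 5.58 and 3.27 FPKM in laminin-negative cells against 20.6 and 18.0 FPKM in laminin-positive libraries. Cd68 was highest in laminin-negative cells (3.03 ± 0.668 FPKM). In laminin-positive cells C1qa (6.50 ± 0.356 FPKM) led, with Cd68 close to it (6.49 ± 1.37 FPKM). Cd3e was at 0 in every library. The pan-leukocyte gene Ptprc was at 0.0621 and 0.0557 FPKM in laminin-negative cells. Mesothelial markers summed to 1.05 and 1.77 against 0.502 and 0.332 FPKM. Lrrn4 was highest in laminin-negative cells (1.10 ± 0.255 FPKM) and Upk1b in laminin-positive cells (0.238 ± 0.0338 FPKM). Krt19 was at 0 in every library. Schwann cell markers summed to 1.45 and 1.29 against 3.01 and 2.59 FPKM. Germ cell markers summed to 7.79 and 8.62 against 20.9 and 21.3 FPKM. Dazl was highest in laminin-negative cells (2.94 ± 0.539 FPKM). In laminin-positive cells Zbtb16 (6.66 ± 0.0996 FPKM) led, with Dazl close to it (6.56 ± 0.364 FPKM). Apart from the Leydig list, only the mesothelial and endothelial sums were higher where the 10 genes were. The endothelial sum was so through Cdh5 and the mesothelial sum mainly through Lrrn4. Of the 6 mesothelial markers, 5 were under 1 FPKM throughout. Their means were higher in laminin-negative cells for 3 and in laminin-positive cells for 2. The part of these markers in the results was not tested.

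**Figure D5:**
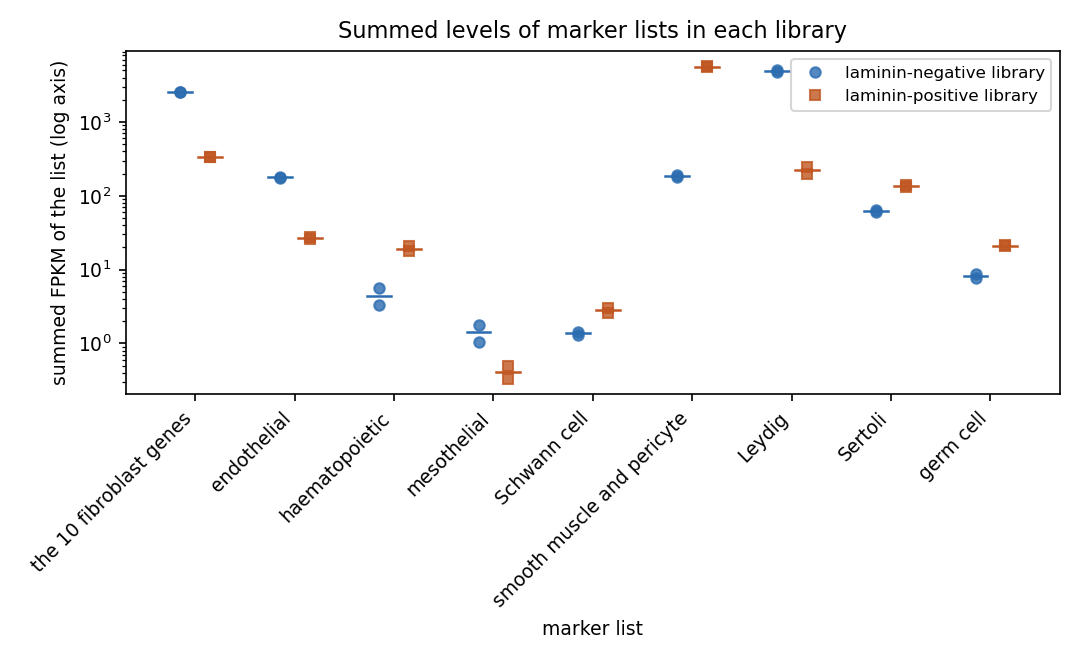
Summed FPKM (log axis) of the 10 fibroblast genes and of 8 lists of cell type markers in each laminin-negative (blue circles) and laminin-positive (orange squares) library, with short lines at the mean of 2 libraries. The fibroblast, endothelial, mesothelial and Leydig sums are higher in laminin-negative libraries and the other 5 in laminin-positive libraries.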

How the data were processed

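RNA of 4 sorted samples, 2 of each population, was sequenced. Per the labels' protocols, the kits were RNeasy micro for RNA and NEBNext Ultra Directional for libraries. The authors deposited FPKM for each library, per the file headers. TopHat2 2.1.1 and Cufflinks 2.2.1 appear, with no role stated, among the tools of the submitters' processing notes. Not given in the sources used here were build, annotation, strand setting and scaling. Of 21203 unique symbols, 99.6% overlapped the GENCODE M21 gene of that name on GRCm38, whose coordinates are printed.

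Rows with at least 1 FPKM in at least 2 libraries (12348) were tested on log2(FPKM + 1) with limma 3.58.1 (R 4.3.3), using an intensity trend and no replicate block, two-sided, with Benjamini-Hochberg adjustment and a threshold of 0.05. The fit was tested on simulated data. The 10 genes, and the lists of related genes, were chosen with earlier results of these data known. Named were the 10 genes, the 3 largest differences of each list, all relatives and partners, the top marker of each cell type list in each population and the 6 nearest profiles; other names were chosen after the values were seen, and 2 genes of the rule are not reported here. No library pair was identical: replicates shared identical values above 0 in at most 1 row. Alternatives covered pseudocount, filter, trend, shared variance, scaling, replicate block and each library left out.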

Additional observations from a re-analysis of the deposited data

How the results depend on the processing

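Of 68 tested genes outside the 10, 62 were called, and 41 kept their side of the threshold under all 11 alternatives; no called direction reversed. Without variance shared across genes, calls over all genes came to 1346 higher and 1211 lower. In the lists they came to 1 higher and 9 lower for the other Pi16-type genes, 4 lower for the Col15a1 type, 1 higher and 7 lower for general fibroblast genes, 4 higher and 3 lower for relatives, and 1 higher and 3 lower for binding partners. That fit rests on 2 residual degrees of freedom. With equal FPKM sums and the ribosomal RNA row Rn45s left out, 2 changes made together, 5 binding partners were higher. This setting moved the median of all genes from 0.01 to 0.12 and the share of higher among called genes from 50.3% to 64.3%, so small differences depend on it. Leaving out 1 library at a time gave 2587 to 3254 higher and 2610 to 3064 lower genes. The replicate numbers share only a number (correlation of deviations 0.00809); with the replicate block 3376 were higher and 3343 lower. Low values and the unknown fragment number limit the ratios of genes under 1 FPKM, above all Ly6a and Pcolce2.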
